A study of Mus musculus with 16 samples.

Results

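Microglia are the resident phagocytes of the brain. Around amyloid plaques, in mouse models of Alzheimer's disease, they take on a state in which genes of homeostatic surveillance fall while genes of lipid sensing, phagocytosis, lysosomal breakdown and secretion rise. TREM2, a surface receptor for lipids and lipoproteins, signals through the adaptor TYROBP (DAP12) and is needed for microglia to complete that change. Of the 55487 genes in the count table, 10 genes of this state were followed here by their symbols. They are the receptor Trem2 and its adaptor Tyrobp, the surface receptors Axl, Clec7a and Itgax, the lysosomal genes Ctsd, Cd68, Lyz2 and Cst7, and the secreted Spp1. Each symbol matched a single identifier.

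The RNA came from bulk brain of 16 female mice on a C57BL/6J background, and all of them carried a CETP transgene. CETP moves cholesteryl esters between lipoproteins and has no counterpart in wild-type mice. The 8 CETPtg mice carried CETP alone, and the 8 APPtg/CETPtg mice carried in addition a human APP gene with the Swedish and Indiana mutations, which the Thy1 promoter drives in neurons. Within each genotype, 4 mice received evacetrapib, a CETP inhibitor, at 30 mg/kg by daily injection for 11 weeks, and 4 received the Kolliphor EL and glucose vehicle. All were heterozygous and ate a diet with 1% cholesterol from 11 weeks of age. The design asks whether the members differ with CETP inhibition, with the APP transgene, and whether the genotype alters the effect of the inhibitor. No wild-type mice and no count of plaques are part of these data, so the name of the gene set describes where the genes are known from, not what was seen in these brains. In the published review file, the authors state that stained brain sections of the study's mice showed no plaques. They give the early age of the mice as the likely reason.

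Each mouse gave between 21391335 and 55453789 reads on genes. The APPtg/CETPtg groups were the shallower ones, with median totals of 23110676 under evacetrapib and 24992987 under vehicle, against 36574277 and 35195745.5 in CETPtg. Levels are given as CPM, read counts scaled to the normalized library size. Thy1, whose promoter drives the transgene, lay between 684 and 807 CPM in the CETPtg mice and at 865 CPM or more in every APPtg/CETPtg mouse, and separated the genotypes as labelled. The index plate placed the genotypes in different columns and the treatments in different rows, so plate position cannot be told apart from either. The homeostatic microglia genes were all detected. In bulk tissue, fewer microglia and less RNA per microglial cell cannot be told apart.

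The members spanned a wide range of levels. On the scale of CPM per kilobase of the longest coding transcript, Ctsd, the lysosomal aspartyl protease cathepsin D that many cell types make, had the highest level at 110 ± 7.49 (SD, n = 16). Tyrobp followed at 18.8 ± 2.12, above Trem2 in all 16 mice. Trem2 (13.3 ± 1.67) and Axl (12.8 ± 0.799), a receptor tyrosine kinase that recognises dying cells, overlapped, with Trem2 the higher in 10 of 16 mice. Cd68, a lysosomal membrane glycoprotein of phagocytes, was at 8.65 ± 0.798, Spp1 (osteopontin) at 6.73 ± 1.69 and Lyz2, a lysozyme of myeloid cells, at 5.91 ± 1.08, and neighbours in this order overlapped. Cst7 (0.164 ± 0.0915), Itgax (0.141 ± 0.0846) and Clec7a (0.133 ± 0.0508) stood far below the rest, and their ranges overlapped one another.

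These 3 low genes are among the most specific to microglia at plaques. Cst7 encodes cystatin F, an inhibitor of lysosomal proteases, Itgax the integrin CD11c, and Clec7a the fungal glucan receptor dectin-1. Cst7 had between 1 and 13 counts per mouse and reached 10 counts in 2 mice, so it was not tested. Both were CETPtg mice under evacetrapib, and the 8 APPtg/CETPtg mice lay between 0.108 and 0.272 CPM. Itgax reached 10 counts in 11 mice and Clec7a in 7. None of those 7 was in the APPtg/CETPtg group under evacetrapib, where Clec7a had 6 or 7 counts in every mouse. That group had the lowest median depth. In CPM its Clec7a lay between 0.226 and 0.323, within the CETPtg range of 0.0797 to 0.482. Itgax ranged from 1 to 25 counts within the APPtg/CETPtg mice under evacetrapib, so its values differed widely between mice of a group as well as being low.

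**Figure D1:**
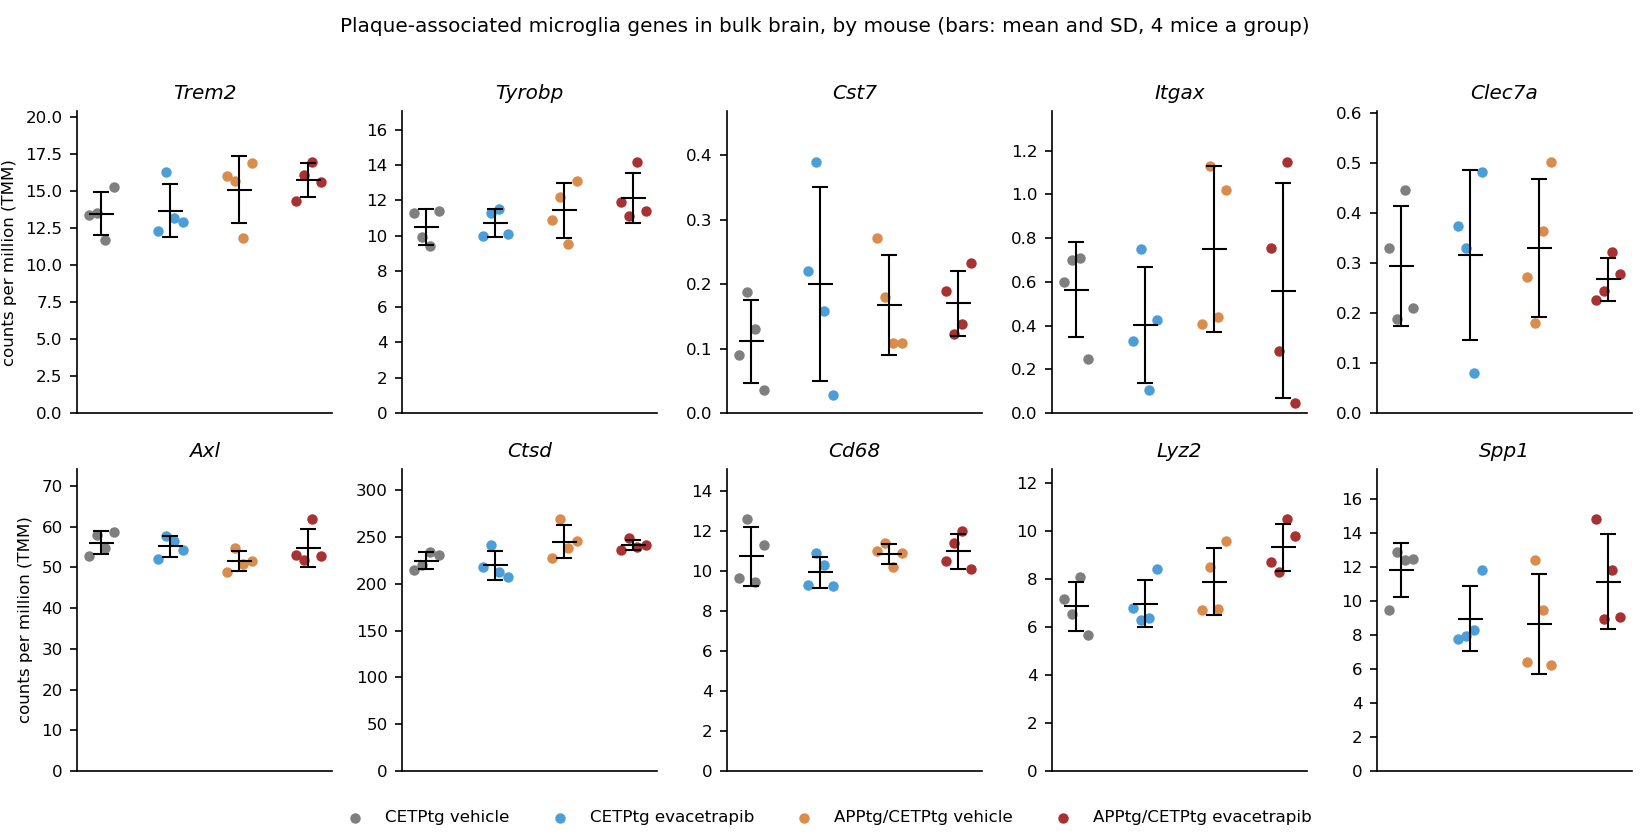
Level of each of the 10 genes in every mouse, in CPM on linear axes that start at 0; points are mice, black bars the mean and SD of 4 mice, and colours the 4 groups. Ctsd and Lyz2 sit higher in the APPtg/CETPtg mice with overlap between the genotypes, and Spp1 has its highest group means in CETPtg under vehicle (11.8) and APPtg/CETPtg under evacetrapib (11.2).

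The comparison of genotypes asks how the members stand in brains that express mutant human APP. Ctsd and Lyz2 were higher in APPtg/CETPtg than in CETPtg mice over both treatments, by 10% and 24%. Trem2 and Tyrobp had positive estimates that did not pass the threshold, and Axl, Spp1, Cd68, Itgax and Clec7a gave no call. Counts of all 18609 genes that passed the filter on low counts were tested with edgeR's quasi-likelihood test, and a gene was called when its Benjamini-Hochberg adjusted p did not exceed 0.05 and its level differed by 5% or more. By that rule 2 of the 9 tested members were called, both higher, against 17.7% of all genes tested. At an unadjusted p below 0.05 there were 4 members, against 30.5% of all genes. These shares are near those of the whole table, so the calls are not particular to the members. The median log2 fold change was 0.13 over the members and 0.005 over all genes, with 7 member estimates above 0 and 2 below, against 51.2% above 0 among all genes. Under vehicle alone and under evacetrapib alone no member was called by edgeR, against 10.4% and 2.99% of all genes, and 2 members in each had an unadjusted p below 0.05, against 25.2% and 19.3%.

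Ctsd (chr7:142375911-142388038, minus strand, GRCm38) was at 236, 249, 239 and 242 CPM in the APPtg/CETPtg mice under evacetrapib and at 228, 269, 238 and 246 CPM under vehicle. The CETPtg mice were at 218, 242, 213 and 207 CPM under evacetrapib and at 215, 220, 234 and 231 CPM under vehicle. The genotypes overlapped, and the lowest APPtg/CETPtg mouse lay above the CETPtg median of 219 CPM. The log2 fold change was 0.13 ± 0.037 (SE, adjusted p = 0.0199), with a 95% interval from 0.05 to 0.21. It was 0.12 under vehicle (adjusted p = 0.154) and 0.14 under evacetrapib (adjusted p = 0.167), which are contrasts of 4 mice against 4. The call rested on single mice: without mouse D, F or S1 the adjusted p rose to between 0.0501 and 0.0545. The annotated exons of Ctsd share 808 bases with the gene model Gm49369 on the same strand, which had 2 counts in all mice together.

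The lysosomal genes that are controlled by TFEB often carry the sequence CACGTG in their promoters. In the 250 bases before its RefSeq start Ctsd holds 2 of them, while 6.02% of the 32851 promoter windows of that length hold any. RefSeq places the start inside the gene as GENCODE draws it, so only the 39 bases outside both are shown, at chr7:142388039-142388077 on the minus strand of GRCm38.p6, with the motif in capitals:
Ctsd: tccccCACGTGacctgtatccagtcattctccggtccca
A match is a description of the letters and no binding was measured. None of the other members with a RefSeq promoter entry has CACGTG in its window.

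Lyz2 (chr10:117277331-117282321, minus strand) was at 8.72, 8.32, 10.5 and 9.79 CPM in APPtg/CETPtg mice under evacetrapib and at 6.71, 8.52, 6.77 and 9.58 CPM under vehicle. In CETPtg mice it was at 6.82, 6.30, 6.40 and 8.43 CPM under evacetrapib and at 7.17, 6.54, 8.10 and 5.67 CPM under vehicle. The APPtg/CETPtg mice under evacetrapib formed the highest group, and mouse D alone among the CETPtg mice reached their range. The log2 fold change between genotypes was 0.31 ± 0.097 (SE, adjusted p = 0.0304), with a 95% interval from 0.11 to 0.51. It was 0.21 under vehicle (adjusted p = 0.361) and 0.42 under evacetrapib (adjusted p = 0.0953), and these effects were not shown to differ, since the interaction was 0.21 ± 0.19 (adjusted p = 0.839). The call was lost when mouse A, B, C, G, H, S4 or S8 was left out, with adjusted p between 0.0528 and 0.0740.

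Reads of Lyz2 could be confused with those of its neighbour and near copy Lyz1, the lysozyme of Paneth cells. The coding sequences of 444 bases each differ at 22 positions, and the longest identical stretch is 118 bases. The first 180 coding bases are shown to give the scale of that likeness, with the 15 differing bases in capitals:
Lyz2: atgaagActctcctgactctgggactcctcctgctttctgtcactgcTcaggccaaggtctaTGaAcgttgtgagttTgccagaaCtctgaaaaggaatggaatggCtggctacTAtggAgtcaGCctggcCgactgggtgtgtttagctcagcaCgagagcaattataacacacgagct
Lyz1: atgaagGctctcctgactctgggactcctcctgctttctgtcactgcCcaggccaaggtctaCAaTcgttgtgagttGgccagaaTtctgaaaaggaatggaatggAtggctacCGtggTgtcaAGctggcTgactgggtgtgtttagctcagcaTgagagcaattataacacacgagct
Lyz1 had between 0 and 2 counts per mouse, against 148 to 533 for Lyz2. With the counts of both genes summed, the log2 fold change was 0.31 (adjusted p = 0.0310), a sum that could hardly differ since Lyz1 had 10 counts in all mice together against 3939 for Lyz2. Reads that could be assigned to neither copy were not examined.

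Lyz2 is also a gene of border macrophages, the macrophages of the meninges and perivascular spaces, and of blood monocytes. The summed level of 10 border macrophage genes was between 34.4 and 38.3 CPM in APPtg/CETPtg mice under evacetrapib. It was between 26.6 and 31.2 CPM in the other 3 groups. These sums, in which the abundant genes weigh most, did not overlap. The mean log2 CPM of the same genes did overlap, from 0.37 to 0.70 in that group and from 0.04 to 0.49 in the others. The share of all genes that set this group apart from the other 3 was not computed. Under evacetrapib 2 of the 10 were called higher in APPtg/CETPtg: the haemoglobin scavenger receptor Cd163 by 0.72 on the log2 scale (adjusted p = 0.0175) and the scavenger receptor Stab1 by 0.35 (adjusted p = 0.0180). The 10 monocyte and neutrophil genes summed to between 1.10 and 1.39 CPM in that group and to between 0.529 and 1.41 CPM in the others, and none of the 10 was at 0 in every mouse. The meningeal fibroblast genes summed to between 68.3 and 75.7 CPM in that group and to between 43.6 and 73.5 CPM in the others. The part of these cells in the level of Lyz2 was not tested.

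Trem2 (chr17:48346401-48354147, plus strand) was at 14.3, 16.1, 17.0 and 15.6 CPM in APPtg/CETPtg mice under evacetrapib and at 16, 15.7, 11.8 and 16.9 CPM under vehicle. The CETPtg mice were at 12.3, 16.3, 13.2 and 12.9 CPM under evacetrapib and at 13.4, 13.5, 11.7 and 15.3 CPM under vehicle. The genotypes overlapped because of mouse S7, low for its genotype, and mice B and S4, high for theirs. The log2 fold change was 0.19 ± 0.076 (SE), with a 95% interval from 0.03 to 0.35 and an adjusted p of 0.0981. Without mouse B the adjusted p was 0.0381, and without mouse S7 it was 0.0262.

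Tyrobp (chr7:30413760-30417585, plus strand) was at 11.9, 11.1, 14.2 and 11.4 CPM in APPtg/CETPtg mice under evacetrapib and at 10.9, 12.2, 9.57 and 13.1 CPM under vehicle. In CETPtg mice it was at 10, 11.3, 11.5 and 10.1 CPM under evacetrapib and at 11.3, 9.92, 9.41 and 11.4 CPM under vehicle. Its log2 fold change was 0.15 ± 0.072 (SE, adjusted p = 0.152). The receptor and its adaptor thus had estimates of like size, neither past the threshold.

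For the other members the genotype estimates were small or imprecise. Axl was at 53.2 ± 3.89 CPM (SD, n = 8) in APPtg/CETPtg and 55.6 ± 2.53 CPM in CETPtg, a log2 fold change of -0.07 with a 95% interval from -0.16 to 0.03. Cd68 was at 10.9 ± 0.672 and 10.4 ± 1.19 CPM, with an interval from -0.06 to 0.22. Spp1 was at 9.90 ± 2.98 and 10.4 ± 2.23 CPM, with an interval from -0.42 to 0.28. The intervals of Itgax (-0.35 to 1.26) and Clec7a (-0.60 to 0.65) were several times wider, so a moderate rise of these low genes could not be told from no change. No member had genotype groups free of overlap, against 3.03% of all genes tested over both treatments, 17.0% under vehicle and 10.8% under evacetrapib.

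**Figure D2:**
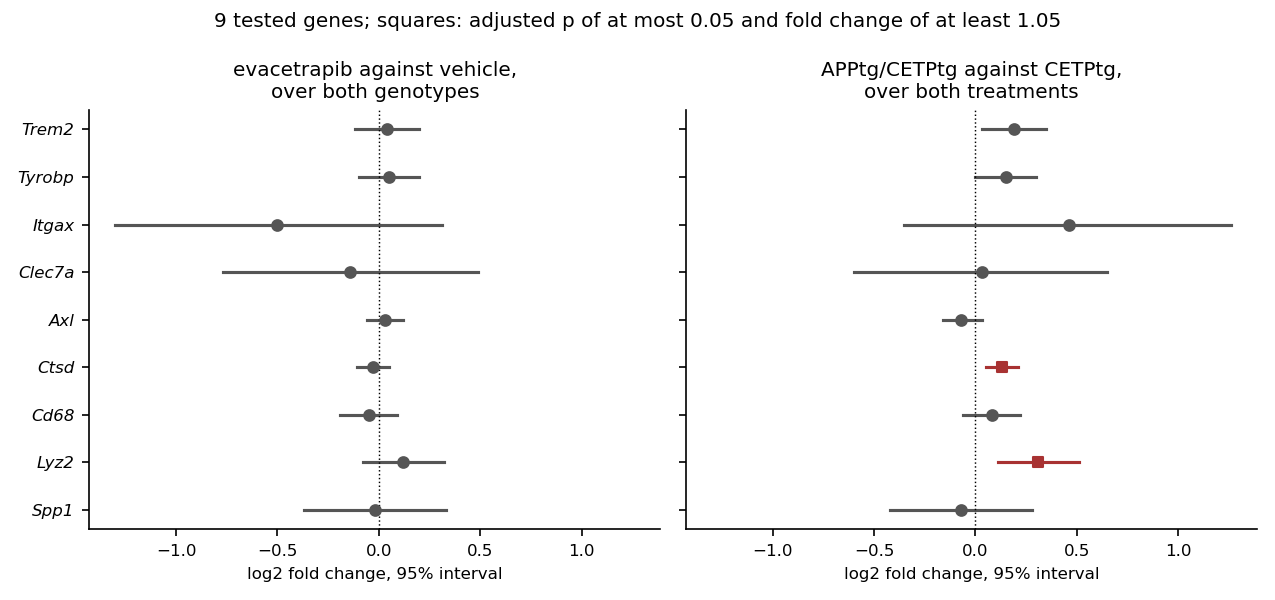
Log2 fold change of the 9 tested genes with its 95% interval, for evacetrapib against vehicle (left) and APPtg/CETPtg against CETPtg (right), each over 8 mice against 8; red squares mark genes past both thresholds and grey circles the others. Ctsd (0.13) and Lyz2 (0.31) are marked on the right and none on the left, and Itgax and Clec7a have the widest intervals.

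The genes listed beside the members are given in the same comparison, in which 17.7% of all genes were called, 1740 higher and 1559 lower. Of 35 further genes of microglia at plaques, 32 were tested, 3 were called higher and 1 lower, a smaller share than among all genes, and the median was 0.09. Hexa, a subunit of the lysosomal enzyme beta-hexosaminidase, rose by 0.23 (adjusted p = 0.000116), the integrin subunit Itgb2 by 0.26 (adjusted p = 0.0459) and Ch25h, which makes 25-hydroxycholesterol, by 0.89 (adjusted p = 0.0462). Apbb2, an adaptor that binds the tail of APP and is not specific to microglia, fell by 0.23 (adjusted p = 0.00115).

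Of 20 genes of TREM2 and DAP12 signalling, from kinases and adaptors to the sheddases and transcription factors, 18 were tested. Vav1, a guanine nucleotide exchange factor, was the 1 called, at 0.27 (adjusted p = 0.0337), and the median was 0.04. The B-cell linker Blnk was at 0.44 over both treatments (adjusted p = 0.0563) and was called under vehicle, at 0.69 (adjusted p = 0.0439). Hcst (DAP10), the other adaptor that TREM2 can use and a gene beside Tyrobp, was at 0.36 ± 0.29 (adjusted p = 0.435).

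The homeostatic microglia genes, which are known to fall in the plaque-associated state, were not lower by this test. Of 18 tested, 6 were called higher and 0 lower, with a median of 0.10 and 14 estimates above 0. Tmem119, a surface marker of microglia, rose by 0.30 (adjusted p = 0.000645), the complement genes C1qc by 0.22 (adjusted p = 0.00156), C1qb by 0.32 (adjusted p = 0.00209) and C1qa by 0.22 (adjusted p = 0.0292), Selplg by 0.21 (adjusted p = 0.00525) and Aif1 by 0.38 (adjusted p = 0.0141). Their summed level was between 641 and 704 CPM in APPtg/CETPtg mice under evacetrapib and between 582 and 685 CPM under vehicle, against 571 to 625 and 583 to 657 CPM in CETPtg. When the mean log2 level of the 18 genes entered the model as a covariate, an alternative chosen after the data were seen, Ctsd was at 0.09 (adjusted p = 0.274), Lyz2 at 0.21 (adjusted p = 0.351) and no member was called. Trem2 was then at 0.01 (adjusted p = 0.956), Tyrobp and Cd68 were both at -0.01 and Itgax was at -0.06. In that fit the covariate itself differs between the genotypes. With only the within-group part of the covariate, Ctsd stayed at 0.13 (adjusted p = 0.0160), Lyz2 was at 0.30 (adjusted p = 0.0379), and Trem2 was called as well, at 0.18 (adjusted p = 0.0296).

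Of 24 lysosomal genes tested, 2 were called higher and 3 lower, with a median of 0.05, a share close to the 17.7% of all genes. Hexa, which is also counted above, and the sialidase Neu1 (0.15, adjusted p = 0.00659) rose. The membrane proteins Scarb2 and Lamp2 and the cholesterol transporter Npc1 fell by 0.13 (adjusted p = 0.00385), 0.14 (adjusted p = 0.0242) and 0.17 (adjusted p = 0.00803). The rise of Ctsd thus stood beside calls of either sign among genes of the same organelle.

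Markers of other glia differed between the genotypes too. Of 8 oligodendrocyte genes 4 were called lower, with a median of -0.22, among them the myelin gene Mbp (-0.20, adjusted p = 0.0402). Of 9 astrocyte genes 3 were called lower and 1 higher, with the glutamate transporter Slc1a2 at -0.35 (adjusted p = 0.000275) and Aldoc at 0.14 (adjusted p = 0.0236). Of the border macrophage genes Cd163 was the 1 called over both treatments, at 0.58 (adjusted p = 0.00129). None of the 5 red cell genes, the 10 monocyte and neutrophil genes or the 9 dendritic and lymphoid genes was called in this comparison, of which 5, 2 and 3 were tested. The part of these differences in the levels of the members was not tested.

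The second question is whether CETP inhibition changed the members. No member was called, over both genotypes, in CETPtg or in APPtg/CETPtg mice, where the shares of all genes called were 0.0107%, 0.00% and 0.0430%. The Wald test of DESeq2 and limma-voom also called none in these comparisons. At an unadjusted p below 0.05 there were 0 members in each, against 7.91%, 5.80% and 9.01% of all genes. Treated and vehicle mice overlapped for every member, where 0.0537%, 3.92% and 4.29% of all genes did not overlap. Over both genotypes 4 estimates were above 0 and 5 below, against 49.2% above 0 among all genes, the median being -0.02 and the adjusted p between 0.805 and 0.990.

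The better measured members bounded the effect closely. Over both genotypes the 95% interval of the log2 fold change was -0.11 to 0.05 for Ctsd, -0.06 to 0.12 for Axl, -0.19 to 0.09 for Cd68, -0.10 to 0.20 for Tyrobp and -0.12 to 0.20 for Trem2. Trem2 was at 14.7 ± 1.76 CPM (SD, n = 8) under evacetrapib and 14.3 ± 1.97 CPM under vehicle. Lyz2 was at 8.16 ± 1.56 and 7.38 ± 1.26 CPM, with an interval from -0.08 to 0.32. Itgax was at 0.481 ± 0.376 and 0.656 ± 0.303 CPM, and its interval ran from -1.30 to 0.31. These intervals limit what could have been missed and do not show that the levels were equal.

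The listed neighbours of the members gave no call under evacetrapib either. Of the further plaque-associated genes, the TREM2 and DAP12 signalling genes, the homeostatic genes and the lysosomal genes, none was called in any of the 3 treatment comparisons. The smallest edgeR p over both genotypes was that of the protease Ctsl among the plaque-associated genes (-0.08, adjusted p = 0.601). Among the signalling genes it was that of the inhibitory receptor Sirpa (0.07, adjusted p = 0.636). Among the homeostatic genes it was that of Fcrls (0.14, adjusted p = 0.684), and among the lysosomal genes that of the acid glucosidase Gaa (-0.15, adjusted p = 0.565). In APPtg/CETPtg mice it was that of Cd74 among the plaque-associated genes (0.61, adjusted p = 0.357), of Adam17 among the signalling genes (0.15, adjusted p = 0.569) and of Psap among the lysosomal genes (-0.10, adjusted p = 0.505). Of the 18 homeostatic genes there, 14 estimates were above 0, with a median of 0.05 and a lowest adjusted p of 0.266. An unadjusted p below 0.05 in the edgeR fit was found for 3 of them, against 9.01% of all genes. Of the 10 border macrophage genes 9 were above 0 there, with a median of 0.35, and 4 had an unadjusted p below 0.05 in the same fit. Stab1 came closest, at 0.31 (adjusted p = 0.226).

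Spp1 (chr5:104435118-104441050, plus strand) had uneven values, with standard errors that only the low genes Itgax and Clec7a exceeded among the tested members. Osteopontin is secreted, and in brain it is made by macrophages of the vessel wall and by some neurons as well as by activated microglia. It was at 7.74, 7.97, 8.29 and 11.8 CPM in CETPtg mice under evacetrapib and at 9.49, 12.9, 12.4 and 12.5 CPM under vehicle. In APPtg/CETPtg mice it was at 14.8, 8.93, 11.8 and 9.05 CPM under evacetrapib and at 6.40, 12.4, 9.50 and 6.22 CPM under vehicle. The group mean was thus lower with evacetrapib in CETPtg (8.96 against 11.8 CPM) and higher with it in APPtg/CETPtg (11.2 against 8.64 CPM). The groups overlapped in both genotypes. In APPtg/CETPtg, mice F and H under evacetrapib lay below mice S6 and S7 under vehicle.

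The estimates for Spp1 had opposite signs in the 2 genotypes. The log2 fold change with evacetrapib was -0.40 ± 0.20 in CETPtg (SE, adjusted p = 0.837) and 0.39 ± 0.21 in APPtg/CETPtg (adjusted p = 0.607). The difference between the genotypes in the evacetrapib effect was 0.79 ± 0.29, with a 95% interval from 0.19 to 1.4 and an unadjusted p of 0.0128 in the edgeR fit, but it did not survive adjustment over all genes (adjusted p = 0.703). It was the 1 member with an unadjusted p below 0.05 in that contrast, where 6.83% of all genes had one, and 0.00% were called. In the same contrast 9244 of the 18609 genes tested were above 0, and several lists leaned to 1 side. Above 0 were 9 of 10 border macrophage genes (median 0.39), 8 of 8 meningeal fibroblast genes (median 0.38), 9 of 9 astrocyte genes (median 0.07) and 14 of 18 homeostatic genes (median 0.09). Below 0 were 7 of 7 choroid plexus genes (median -1.56), 8 of 8 oligodendrocyte genes (median -0.09) and 5 of 5 red cell genes (median -0.80). Single mice differed widely in some of these lists. The choroid plexus genes summed to between 11.4 and 463 CPM within APPtg/CETPtg under vehicle. The red cell genes summed to between 92.8 and 289 CPM within CETPtg under evacetrapib. How far single mice set the shared signs was not tested. None of these genes was called. Their part in the values of Spp1 was not tested. The APPtg/CETPtg estimate against CETPtg under vehicle was -0.47 ± 0.20 (adjusted p = 0.153). It shares its mice with the contrasts above, and without mouse S6 it was -0.70 (adjusted p = 0.0304). The exons of Spp1 share 309 bases with the gene model Gm42793, which had 5 counts in all mice together.

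The other members had no unadjusted p below 0.05 in that contrast of the edgeR fit. The interaction was 0.03 ± 0.16 for Trem2, 0.05 ± 0.15 for Tyrobp, 0.01 ± 0.077 for Ctsd, 0.11 ± 0.085 for Axl, 0.14 ± 0.13 for Cd68 and 0.21 ± 0.19 for Lyz2, with adjusted p of 0.802 or more. For Itgax (0.08 ± 0.78) and Clec7a (-0.51 ± 0.61) the errors exceeded the estimates.

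**Figure D3:**
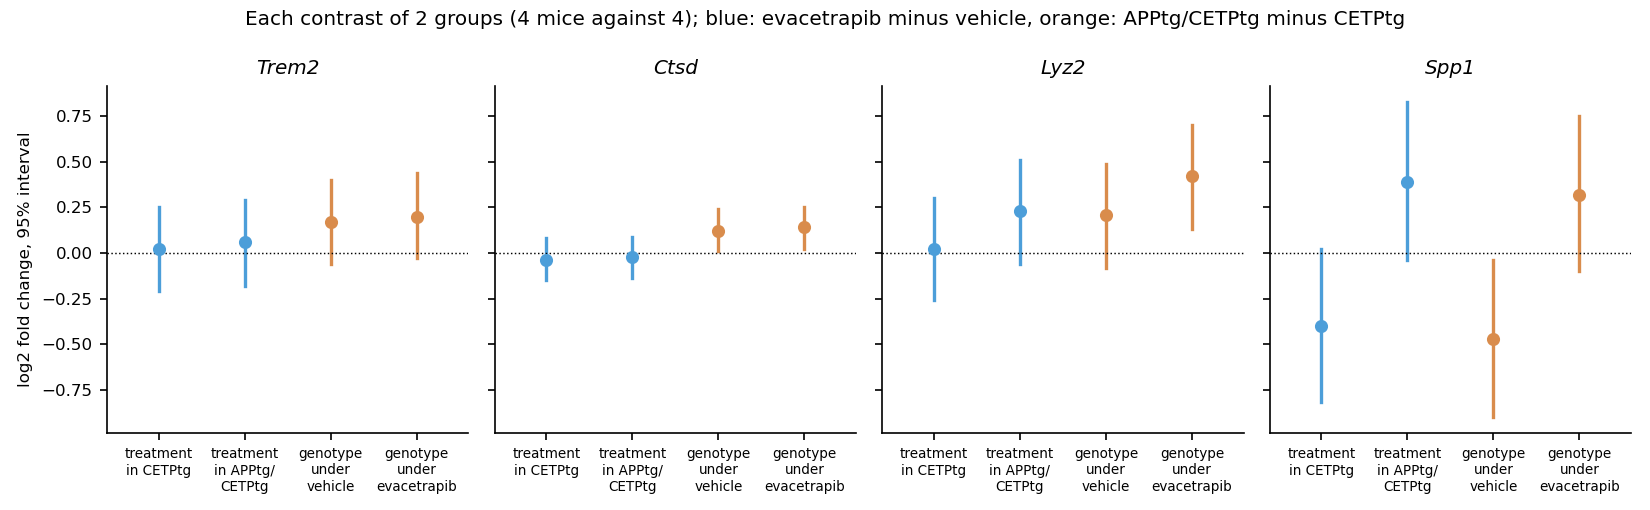
Log2 fold change with 95% interval of Trem2, Ctsd, Lyz2 and Spp1 in the 4 contrasts of 2 groups, each 4 mice against 4; blue is evacetrapib minus vehicle within a genotype and orange APPtg/CETPtg minus CETPtg within a treatment, and contrasts share mice. Ctsd has like estimates under vehicle (0.12) and evacetrapib (0.14), while the Spp1 treatment estimates lie on opposite sides of 0 (-0.40 and 0.39).

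How the members varied between mice of the same group was described after the group means had been removed, over 16 mice. Trem2 and Tyrobp moved with the mean of the 18 homeostatic microglia genes, Pearson's r being 0.80 and 0.82 (permutation within groups, adjusted p = 0.00571 for both over 9 relations). Spearman's rho was 0.64 and 0.69, each with an adjusted permutation p of 0.0559, and without the 2 mice farthest from the median, S8 and S4, r was 0.76 and 0.78. Axl had an r of 0.60 (permutation, adjusted p = 0.0476) and a rho of 0.53 (adjusted permutation p = 0.130), and an r of 0.68 without those mice. Ctsd (r = 0.47), Cd68 (0.45), Itgax (0.27), Lyz2 (0.23), Clec7a (0.00) and Spp1 (-0.03) did not pass, with adjusted permutation p of 0.221 or more.

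**Figure D4:**
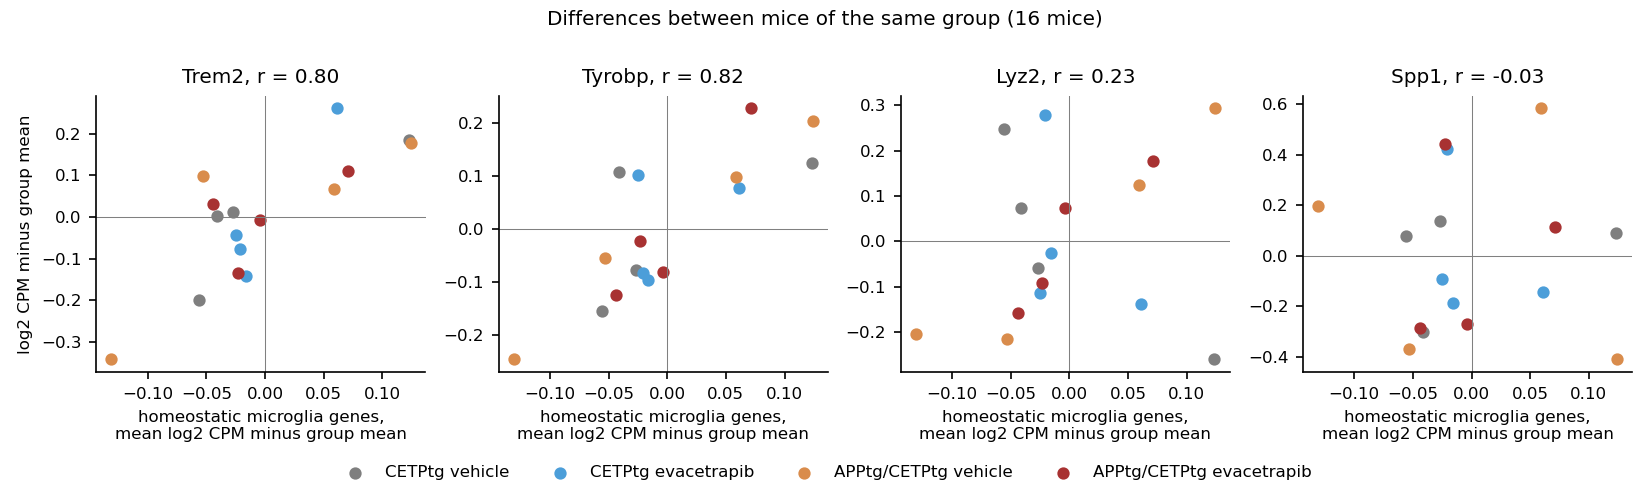
Log2 CPM of Trem2, Tyrobp, Lyz2 and Spp1 in each of 16 mice (vertical) against the mean log2 CPM of 18 homeostatic microglia genes (horizontal), both minus the mean of the mouse's group; colours are the 4 groups. The points of Trem2 and Tyrobp rise with the homeostatic mean (r = 0.80 and 0.82), and those of Lyz2 (0.23) and Spp1 (-0.03) are scattered.

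The receptor and its adaptor also moved together. Trem2 and Tyrobp had an r of 0.74 (permutation, adjusted p = 0.0254 over 8 relations), a rho of 0.70 (adjusted permutation p = 0.0321) and an r of 0.67 without mice S7 and B. Trem2 and Cd68 had an r of 0.62 (permutation, adjusted p = 0.0337), a rho of 0.71 (adjusted permutation p = 0.0286) and an r of 0.58 without those mice. With the other 6 members the r of Trem2 lay between -0.32 for Spp1 and 0.44 for Axl, and none passed. Over all 36 pairs of the 9 tested members the median r was 0.25, 26 were above 0, and the lowest was -0.48 for Clec7a and Cd68. The members thus did not rise and fall as a block. Mouse G, APPtg/CETPtg under evacetrapib, was above the overall mean in 9 of 9 members, and mouse A, CETPtg under evacetrapib, in 1 of 9.

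Promoters of Trem2 and Cd68 are shown because these genes varied together and their windows match the same pair of search patterns. No binding was measured, and a link between the motifs and the shared variation was not tested. GAGGAA, searched on both strands, is the core bound by the myeloid factor PU.1. TGANTCA, a palindrome with any base at N, is a loose form of the AP-1 element. They occur in 23.3% and 6.75% of all promoter windows. Motifs are in capitals in the 250 bases before the RefSeq starts, at chr17:48346151-48346400 on the plus strand for Trem2 and chr11:69666171-69666420 on the minus strand for Cd68, GRCm38.p6:
Trem2: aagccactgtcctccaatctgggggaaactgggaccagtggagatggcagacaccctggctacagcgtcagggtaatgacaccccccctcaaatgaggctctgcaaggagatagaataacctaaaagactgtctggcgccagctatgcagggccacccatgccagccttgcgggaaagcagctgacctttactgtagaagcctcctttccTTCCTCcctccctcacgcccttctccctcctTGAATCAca
Cd68: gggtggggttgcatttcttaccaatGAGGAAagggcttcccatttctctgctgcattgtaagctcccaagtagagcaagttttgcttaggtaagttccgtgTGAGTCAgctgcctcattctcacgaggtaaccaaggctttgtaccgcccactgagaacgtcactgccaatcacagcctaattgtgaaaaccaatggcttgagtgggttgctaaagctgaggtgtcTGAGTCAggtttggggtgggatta
Each window has 1 copy of GAGGAA, which reads TTCCTC on the printed strand of Trem2, and TGANTCA occurs in 1 copy in Trem2 and 2 in Cd68. The copy in Trem2 reads TGAATCA and those in Cd68 read TGAGTCA, so the windows share the pattern but not the exact letters. Itgax has 1 TGANTCA, and Axl, Clec7a and the first start of Spp1 have 1 GAGGAA. Lyz2 and Cst7 have none of the 3 motifs in their windows, which draws nothing about the factors. RefSeq promoters matched 9 of the 10 members, and Tyrobp had no entry.

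Among 14980 other genes with a mean of at least 1 CPM, those whose levels between mice of a group were most like the mean of the 9 members, by Pearson's r over 16 mice, were Parp3 (0.93), the class I antigen presentation genes H2-D1 (0.92) and H2-K1 (0.91), the immunoproteasome subunit Psmb8 (0.89) and the integrin subunit Itga7 (0.88). H2-D1 and H2-K1 are also on the list of further plaque-associated genes. Of the 18 homeostatic genes 3 were among the first 100, C1qc (rank 17), C1qb (rank 29) and C1qa (rank 55), while P2ry12 was at rank 9797 with an r of -0.16. These r values describe the 16 libraries, which share their groups and differ in depth.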

How the data were processed

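Bulk brain RNA of 16 mice was analysed, 4 in each combination of genotype and treatment as given by the labels. From poly(A) RNA the authors made strand-specific libraries, trimmed reads with Trimmomatic 0.39, aligned them to mm10 with STAR 2.7.8a and counted them with HTSeq, per the labels and the study's methods. The strand setting and annotation of the counting are not given in the sources used here. The authors deposited unnormalized counts per gene, and every column was matched to a mouse.

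Genes were kept if 4 or more mice had 10 or more counts. Library sizes were adjusted by TMM and the counts tested with edgeR 4.0.16 (R 4.3.3), two-sided, in models over all 16 mice with genotype and treatment terms or a mean for each group, with Benjamini-Hochberg adjustment over the 18609 genes. The thresholds were an adjusted p of 0.05 and a change of 5%. Standard errors were the log2 fold change divided by the square root of F, and intervals of 95% used the test's degrees of freedom. CPM used TMM library sizes and log2 CPM a prior count of 2. Correlations used 100000 permutations within groups (Python 3.11.15, scipy 1.17.1). Labels name each mouse but no shared replicate numbers, and p-values measure the spread between these mice.

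The members and gene lists were chosen with earlier results of these data known. The text names all members, Thy1, App, Lyz1 and Hcst, the called genes of each list it describes or those of smallest p, the 5 genes most like the members and markers beside a result. Some genes of these lists are not reported here. Ranks of homeostatic genes were added after their values were seen. App was at 0.05 between the genotypes on the log2 scale (adjusted p = 0.574), and how far reads of the human transgene align to it was not tested. Gene positions and exons came from GENCODE M21, and promoters from RefSeq GRCm38.p6. Steps were tested on simulated data. Alternatives were DESeq2 1.42.0 size factors and Wald test, limma-voom (limma 3.58.1), other filters and thresholds, fewer mice or terms, counts drawn down to the smallest total, a homeostatic covariate, summed Lyz1 and Lyz2, and each mouse left out.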

Additional observations from a re-analysis of the deposited data

Results flagged for a closer look

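In 3 of 40 groups of 4 mice a value stood apart from the others by Dixon's criterion, which chance meets in about 1 of 20 groups. Axl was at 61.8 CPM in mouse G, APPtg/CETPtg under evacetrapib, against 51.8 to 53.1 CPM in the other mice of its group. Spp1 was at 11.8 CPM in mouse D, CETPtg under evacetrapib, against 7.74 to 8.29 CPM. Spp1 was also at 9.49 CPM in mouse S1, CETPtg under vehicle, against 12.4 to 12.9 CPM in the others.

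The estimated difference between the genotypes in the evacetrapib effect on Spp1 was 0.79 on the log2 scale. Its unadjusted p of 0.0128 (edgeR) failed adjustment over all genes (adjusted p = 0.703). Of all genes tested, 6.83% had an unadjusted p below 0.05 in that contrast. Without mouse D the difference was 0.96 (adjusted p = 0.424), without mouse S6 it was 1.02 (adjusted p = 0.378), and without mouse E it was 0.62 (adjusted p = 0.798).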

How the results depend on the processing

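Of 1676 estimates of a member under an alternative, 1586 kept their direction and their side of the threshold, 12 lost a call and 8 gained one. Another 70 changed sign, none of them called in either fit, 52 of them with 1 mouse left out. The number of members called was 0 in every treatment comparison and in the interaction under all alternatives run. Between genotypes under evacetrapib it was 1 rather than 0, Lyz2, under the Wald test of DESeq2 (0.41, adjusted p = 0.0404) and at an adjusted p of at most 0.1 (0.42, adjusted p = 0.0953). Over both treatments it was 0 rather than 2 with the homeostatic level as a covariate. With 1 mouse left out it ranged from 1 to 3 over both treatments, from 0 to 1 under vehicle and from 0 to 1 under evacetrapib, where the call was that of Ctsd without mouse B (0.18, adjusted p = 0.0488). Cst7, Itgax and Clec7a had the lowest counts, low depth and spread between mice were not separated for them, and the cause of these changes was not tested.

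With the homeostatic level as a covariate, signs changed between genotypes for Cd68 (-0.01), Tyrobp (-0.01) and Itgax (-0.06) over both treatments, for Itgax (-0.01) and Cd68 (-0.04) under vehicle, and for Itgax (-0.16), Tyrobp (-0.07) and Trem2 (-0.06) under evacetrapib. They changed in the evacetrapib effect in APPtg/CETPtg for Tyrobp (-0.02), Trem2 (-0.05) and Cd68 (-0.03), and in the interaction for Trem2 (-0.12), Ctsd (-0.03), Itgax (-0.15) and Tyrobp (-0.09). Under limma-voom they changed for Clec7a under evacetrapib between genotypes (0.02), for Clec7a with evacetrapib in CETPtg (-0.08) and for Itgax in the interaction (-0.24).

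With each mouse left out in turn, the estimates that changed sign had these ranges. With evacetrapib over both genotypes they were -0.13 to 0.04 for Spp1, -0.29 to 0.03 for Clec7a and -0.01 to 0.07 for Trem2. With evacetrapib in CETPtg they were -0.05 to 0.01 for Axl, -0.17 to 0.40 for Clec7a, -0.07 to 0.09 for Trem2, -0.08 to 0.11 for Lyz2 and -0.02 to 0.08 for Tyrobp. With evacetrapib in APPtg/CETPtg they were -0.02 to 0.07 for Cd68, -0.05 to 0.03 for Ctsd and -0.04 to 0.12 for Trem2. Between genotypes they were -0.18 to 0.15 for Clec7a and -0.19 to 0.03 for Spp1 over both treatments, -0.05 to 0.10 for Cd68 and -0.10 to 0.55 for Clec7a under vehicle, and -0.08 to 0.02 for Axl and -0.07 to 0.95 for Itgax under evacetrapib. In the interaction they were -0.06 to 0.12 for Trem2, -0.48 to 0.53 for Itgax, -0.02 to 0.06 for Ctsd and -0.03 to 0.13 for Tyrobp.

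No paired analysis was possible because the mice of different groups share no replicate numbers.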
